A study of Mus musculus with 50 samples.

Results

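The mRNAs of the constitutive proteasome subunits were followed on polysomes and in total RNA of mouse fibroblasts. The members are the 36 genes with a platform symbol of Psma, Psmb, Psmc or Psmd and a number, without the cytokine-inducible Psmb8, Psmb9 and Psmb10, out of 19057 genes on the array. The 16 Psma and Psmb genes belong to the core particle and the 20 Psmc and Psmd genes to the regulatory particle. Each gene was read by its probe with the highest mean intensity over all arrays, out of 65 probes for the 36 genes. The rule goes by symbol, so it also takes Psma8 and Psmb11, tissue-restricted forms known from testis and thymus, and Psmd5, Psmd9 and Psmd10, which are chaperones of regulatory particle assembly and not lasting subunits.

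The cells were NIH 3T3 derivatives, from a mouse embryonic fibroblast line, and RNA was taken from all 25 cultures after 4 h. The derivative labelled 4E-inducible makes more of the cap-binding translation factor eIF4E when given the steroid mifepristone. It was grown without mifepristone, with it, and with it plus 4Ei-1 at 10, 50, 100 or 200 µM or 4Ei-4 at 200 µM. 4Ei-1 inhibits eIF4E, and 4Ei-4 is its less potent analog. The non-inducible derivative was grown without drug, with or without mifepristone. Each of the 9 groups had 3 cultures except the non-inducible line without mifepristone, which had 1. Total RNA and RNA from the polysome fraction, titled heavy, were measured on separate Illumina bead arrays for each culture, 50 arrays in all. The labels do not say whether a derivative is a clone or whether replicates were grown separately, so p-values measure the spread among these cultures.

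The proteasome degrades proteins tagged with ubiquitin. Its core particle is a barrel of alpha rings, which form the gate, and beta rings, which hold the proteolytic sites of Psmb5, Psmb6 and Psmb7. The regulatory particle binds ubiquitin chains, removes them, and unfolds and threads the substrate through a ring of ATPases, the Psmc subunits. Subunits are needed in fixed proportions, and when proteasome activity falls the factor Nfe2l1 raises transcription of many subunit genes together through antioxidant response elements. In fibroblasts, as in other cells, the proteasome carries the turnover of most short-lived proteins.

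The core letters of such an element, TGACNNNGC, were searched on both strands in RefSeq promoter windows of build GRCm38.p6, from 250 bases before to 50 after a gene's start. Of the 29 members with an entry, 5 (17.2%) held a match, Psmb5, Psmb6, Psmc6, Psmd9 and Psmd12, against 3781 of 27025 genes (14%). The core particle had 2 of 12 and the regulatory particle 3 of 17. The sites that lie with their flanks wholly before the start are printed because the element is the known point of shared control of these genes. Each runs 5′ to 3′ on the strand named, with the match in capitals.
Psmb5, chr14:54618026-54618050, minus strand, 43 bases before the start: tgaagttgTGACGTCGCggcgttgc
Psmc6, chr14:45329589-45329613, minus strand, 223 bases before the start: gcaatgccTGACTTAGCtactggct
Psmd9, chr5:123228151-123228175, plus strand, 27 bases before the start: ctagccggTGACCCCGCccacttcc
A match is a run of letters only, and binding was not measured.

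Arrays had a mean intensity of 183 to 436 and 23.9% to 39.9% of probes detected. Fibroblast markers were present, 8 of 10 on every array, Pdgfrb on 48 and Col5a2 on 21. No marker of another cell type was detected on every array. The 5 epithelial markers were detected on 0 to 19 of 50 arrays (Cdh1 most often), the 3 haematopoietic ones on 0 to 32 (Csf1r) and the 4 endothelial ones on 0 to 22 (Kdr). The Eif4e probe was detected on 17 of 50 arrays, at a normalized log2 intensity of 4.32 to 5.68, and so gave no usable check of the induction. Normalization set each array to the same distribution, so values are relative to all probes. These are bulk RNA measurements, in which fewer cells making an mRNA and less of it per cell cannot be told apart.

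Of the 36 members, 31 were detected on at least 3 arrays and were tested, 12 of the core and 19 of the regulatory particle. A detection p below 0.05 counted as detected. Psma1, Psma3, Psma6 and Psmd3 were detected on no array and Psmb11 on 1, and these 5 are given no value. On all 50 arrays 21 members were detected, 10 of the core and 11 of the regulatory particle. Each of the 31 was detected in both fractions.

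The first comparison asked where the subunit mRNAs lay between polysomes and total RNA, as log2 polysome minus log2 total intensity of the same culture, averaged over the 9 groups. Most subunit mRNAs were higher on polysomes. By limma with adjustment over all 12605 genes tested, 26 of the 31 members were higher and 2, Psmd2 and Psmd5, were lower, where 54% of all genes were called, 32.3% higher and 21.7% lower. The median of the members was 0.81, a fold of 1.75, and that of all genes tested 0.05. All 21 members detected on every array were called higher, with 0.24 to 1.36 and a median of 1.02, a fold of 2.03. Of the 4792 genes detected on every array 50.4% were called higher, with a median of 0.19 over these genes, and all 21 members lay above that median.

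**Figure D1:**
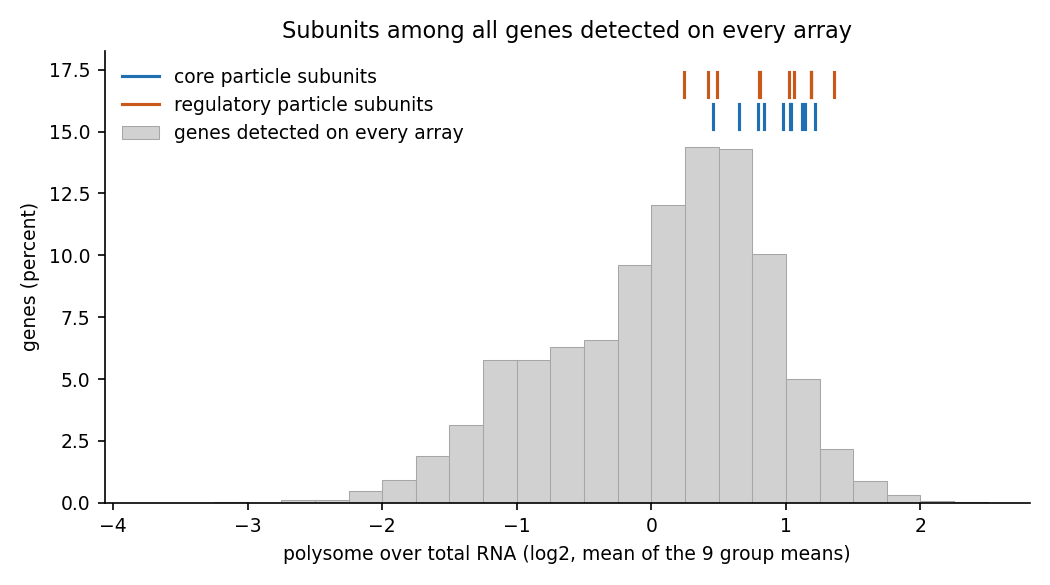
The distribution of log2 polysome over total RNA in the 4792 genes detected on every array (grey bars, percent of genes in bins along the horizontal axis), with 1 tick for each of the 10 core and 11 regulatory particle subunits detected on every array. The subunits lie between 0.24 and 1.36, to the right of the median of these genes at 0.19.

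In the alpha ring, which gates the barrel, 4 of 5 tested members were higher on polysomes. Psma7 (gene ID 26444) had a log2 intensity of 10.35, 11.24 and 11.48 in total RNA (lowest, median and highest of 25 cultures) and of 11.57, 12.29 and 12.73 on polysomes. Every polysome array was above every total RNA array. The difference was 1.22 ± 0.05 (SE), 2.33-fold, with an adjusted p of 2.75e-14 by limma, and it exceeded that of 96% of the genes detected on every array. Psma2 at 1.12 ± 0.06 and Psma5 at 1.03 ± 0.05 also had polysome and total arrays that did not overlap, whereas those of Psma4, at 1.04 ± 0.08, did. Psma8, the testis form, was detected on 7 arrays and had -0.07 ± 0.11 (adjusted p = 0.638), or -0.16 (adjusted p = 0.0454) without replicate 1 at 200 µM 4Ei-1.

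All 7 tested members of the beta ring were higher on polysomes, the catalytic Psmb5, Psmb6 and Psmb7 among them. Psmb6 (gene ID 19175), which carries the caspase-like site, had 10.03, 10.88 and 11.52 in total RNA and 10.19, 12.04 and 12.97 on polysomes as lowest, median and highest. The polysome value was above the total value in 24 of 25 cultures, by 0.98 ± 0.08 (1.97-fold, adjusted p = 1.49e-10). Its polysome values fell into separate ranges by processing batch, 10.19 to 11.09 in batch 2 and 11.77 to 12.97 in batches 1, 3 and 4, and the lowest difference of a culture, -0.19, was in batch 2. The part of batch in this spread was not tested.

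Psmb7 (gene ID 19177), which carries the trypsin-like site, had 10.38, 11.05 and 11.40 in total RNA and 11.40, 11.82 and 12.52 on polysomes, so the groups met at 11.40. The difference was 0.84 ± 0.06 (1.80-fold, adjusted p = 1.74e-11) and was above 0 in 25 of 25 cultures. Psmb5 (gene ID 19173), which carries the chymotrypsin-like site, was dimmer, with 4.49, 6.43 and 7.34 in total RNA and 6.26, 7.55 and 8.75 on polysomes. Its difference of 1.49 ± 0.13 (2.80-fold, adjusted p = 1.2e-09) was the highest among the tested members, but 5 of its total RNA arrays did not detect it, all in batch 2. The mean difference was 2.11 in batch 2 and 1.40, 1.12 and 1.30 in batches 1, 3 and 4. Without batch 2, a setting chosen after seeing the data, it was 1.33.

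Among the structural beta subunits, Psmb4 (gene ID 19172) had 12.39, 12.71 and 13.22 in total RNA and 13.68, 13.87 and 14.29 on polysomes. These arrays did not overlap, and the difference was 1.14 ± 0.05 (2.21-fold, adjusted p = 6.03e-14). Psmb3, Psmb2 and Psmb1 were higher by less, at 0.79 ± 0.07, 0.65 ± 0.06 and 0.46 ± 0.06. Psmb1 and Psmb2 were the lowest core subunits detected on every array, and Psmb1 was above 0 in 24 of 25 cultures.

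**Figure D2:**
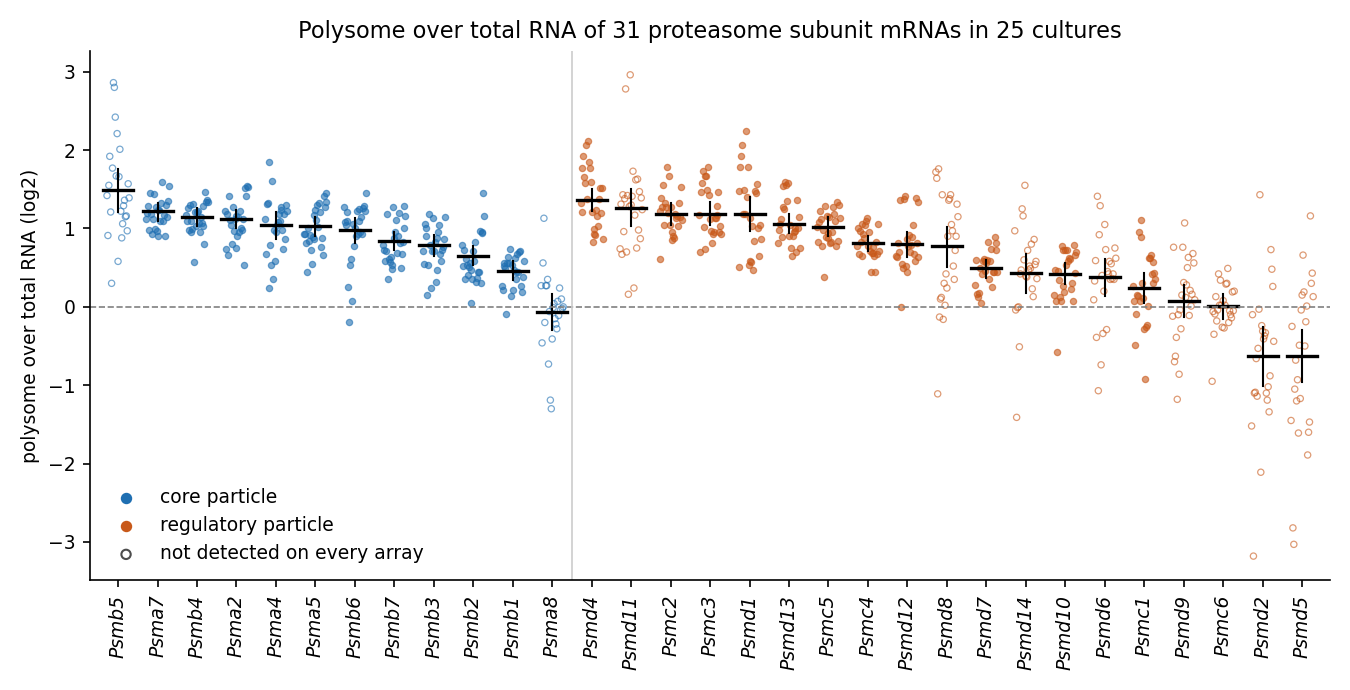
Log2 polysome over total RNA of each tested member (horizontal axis, core then regulatory particle, each ordered by mean) in each of the 25 cultures (points). Black lines are the fitted mean with its 95% interval, and open points are members not detected on all 50 arrays. Psmb5 and Psmd4 lead their particles at 1.49 and 1.36, and Psmd2 and Psmd5 lie lowest, both at -0.63.

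In the ATPase ring that unfolds substrates, 5 of 6 members were higher on polysomes, with a median over the 6 of 0.92. Psmc2 (gene ID 19181) had 11.65, 12.01 and 12.27 in total RNA and 12.51, 13.21 and 13.64 on polysomes, without overlap, a difference of 1.19 ± 0.07. Psmc3 had 9.33, 9.83 and 10.30 against 10.29, 10.99 and 11.73, also 1.19 ± 0.07 (2.28-fold, adjusted p = 1.57e-12). For both the difference was above 0 in 25 of 25 cultures. Psmc5 at 1.02 ± 0.06 and Psmc4 at 0.81 ± 0.05 followed. Psmc1 (gene ID 19179) passed at 0.24 ± 0.09 (adjusted p = 0.0274), with cultures from -0.92 to 1.11, and its mean was below 0 in batch 1 at -0.02 and in batch 3 at -0.14. Psmc6, which has a promoter site printed here, was detected on 6 arrays and had 0.01 ± 0.07.

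Of the 13 tested Psmd genes 10 were higher and 2 lower, with a median of 0.49. The ubiquitin receptor Psmd4 (gene ID 19185) had 11.47, 11.80 and 12.22 in total RNA and 12.46, 13.17 and 14.04 on polysomes. No polysome array fell into the range of the total RNA arrays. The difference was 1.36 ± 0.07 (2.57-fold, adjusted p = 7.71e-14), above that of 97.6% of the genes detected on every array. The scaffold Psmd1, at 1.19 ± 0.10, also had arrays without overlap. The structural subunits Psmd13 at 1.06 ± 0.06 and Psmd12 at 0.80 ± 0.08 were higher too, as was Psmd11 at 1.26 ± 0.11, detected on 48 arrays. Psmd11 was detected on 23 of 25 total RNA arrays. The others, in batch 2 at 4.53 and 4.50, gave its highest differences of 2.78 and 2.96.

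Psmd14 (gene ID 59029), the deubiquitinase that removes the chain, had 4.47, 6.10 and 7.33 in total RNA and 4.49, 6.80 and 7.91 on polysomes and was detected on 43 arrays. The ranges overlapped, and 21 of 25 cultures were above 0. The difference was 0.43 ± 0.12 (1.35-fold, adjusted p = 0.00402), and without batch 2 it was 0.17 and did not pass (adjusted p = 0.0536). Psmd7, the inactive partner of Psmd14, was at 0.49 ± 0.05 and above 0 in 25 of 25 cultures. Psmd6 at 0.38 ± 0.11 and Psmd8 at 0.77 ± 0.12 passed on 27 and 31 detected arrays.

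Both lower members were dim. Psmd2 (gene ID 21762), a ubiquitin receptor and scaffold, had 4.79, 6.52 and 7.57 in total RNA and 4.39, 5.88 and 7.07 on polysomes. The ranges overlapped, and the polysome value was above the total value in 4 of 25 cultures. The difference was -0.63 ± 0.18 (0.645-fold, adjusted p = 0.00466), on 42 detected arrays. Of the 4 cultures above 0, 3 were those of the non-inducible line with mifepristone, at 0.26 to 0.73, and 1 was among the 21 inducible cultures.

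Psmd5 (gene ID 66998), an assembly chaperone, had 6.96, 7.64 and 8.23 in total RNA and 4.71, 7.08 and 8.38 on polysomes. The difference was -0.63 ± 0.16 (adjusted p = 0.00159), with 8 of 25 cultures above 0 and means of -1.72, -0.88, -0.02 and -0.30 in batches 1 to 4. Psmd5 was detected on 48 arrays, but on 3 of the 5 polysome arrays of batch 1. The other polysome arrays of that batch, at 4.71 and 4.88, gave the differences of -2.82 and -3.03. All non-inducible cultures were above 0, at 0.30 to 1.16 with mifepristone and 0.13 without. Of the 21 inducible cultures 4 were above 0, 3 of them at 10 µM 4Ei-1. Batch 4 joined group means of -1.65 with 4Ei-4 and of 0.63 and 0.13 in the non-inducible line. With array medians aligned in place of quantiles the difference over all groups was -0.31 and did not pass (adjusted p = 0.0704). Cultures ranged from -3.03 to 1.16, wider than for any member detected on every array. The other chaperones were at 0.42 ± 0.06 for Psmd10, which passed, and 0.08 ± 0.10 for Psmd9, which did not.

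**Figure D3:**
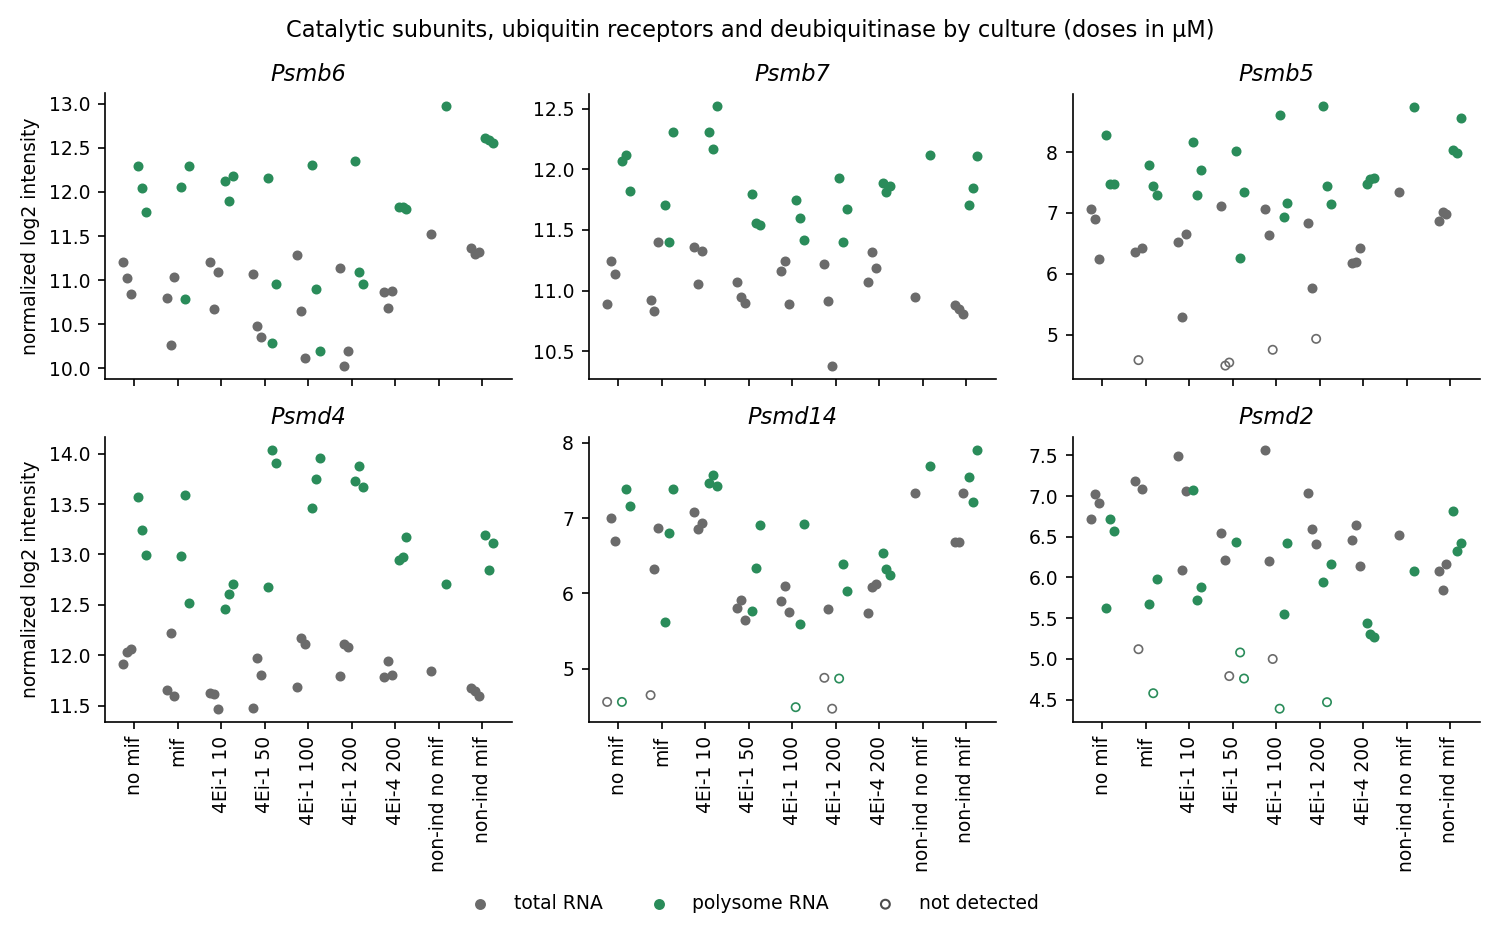
Normalized log2 intensity (vertical axes, a range for each gene) of the catalytic subunits Psmb5, Psmb6 and Psmb7, the ubiquitin receptors Psmd2 and Psmd4 and the deubiquitinase Psmd14 by group, 1 point for each array. Grey is total and green polysome RNA, and open points were not detected. For Psmd4 the polysome points start at 12.46, above the highest total RNA point at 12.22, whereas for Psmd2 most polysome points lie below the total RNA points.

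The core and the regulatory particle had like medians where every array detected the member. Over the tested members the core median was 1.00 and the regulatory median 0.77, 0.24 apart before rounding. Among members detected on every array the medians were 1.00 (0.46 to 1.22) and 1.02 (0.24 to 1.36), and the difference was -0.02. The 8 regulatory members not detected on every array had a median of 0.23, with 4 higher and 2 lower.

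The polysome excess held across cultures and batches. In all 25 cultures the median of the 21 fully detected members was above 0, with 0.65, 0.94 and 1.29 as lowest, median and highest, against 0.05, 0.17 and 0.27 for all genes detected on every array. In batches 1 to 4 the median was 0.97, 0.83, 0.93 and 1.09, and 20, 21, 20 and 21 of the 21 members were above 0, with Psmc1 the exception in batches 1 and 3. Of the 31 members, 18 were above 0 in all 25 cultures, as were 10.2% of all genes tested. Among fully detected genes these were 16 of 21 members and 21.3% of all.

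Different probes of a member mostly gave similar values where they were detected on every array. For 8 members several probes were detected on every array, and all of these probes were above 0. The widest spread among them was 0.45, for Psmb7 from 0.68 to 1.13. Probes disagreed for Psmd7, where a probe detected on 21 arrays gave -1.30 beside 0.49 and 0.54. They also disagreed for Psmd1, where a probe detected on 44 arrays gave -0.08 beside 1.19 and 1.14, and for Psmd10, with 0.09 beside 0.42 and 0.39. The other probe of Psmd2 gave -0.38, and that of Psmd11 with 26 detected arrays gave 0.67. Dimmer probes of Psmc2, Psma5 and Psmd12, on 31, 21 and 27 detected arrays, gave 0.68, 0.53 and 0.53 beside 1.19, 1.03 and 0.80. Those of Psmd14 and Psmd9, on 36 and 28 detected arrays, gave 0.31 and 0.23 beside 0.43 and 0.08.

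Other genes of the pathway were spread more widely. Of 26 tested, 15 were higher and 5 lower on polysomes, with a median of 0.32, and with the mean of all detected probes of a gene 10 were higher and 6 lower. All 5 activators and inhibitors of the core particle were higher, from Ecpas at 0.31 ± 0.11 to Psme1, a subunit of the interferon-induced cap, at 0.98 ± 0.05. The inducible catalytic subunits Psmb10 at 1.42 ± 0.05 (adjusted p = 1.7e-15) and Psmb9 at 1.24 ± 0.09 were higher, while Psmb8, detected on 9 arrays, had 0.02 ± 0.08. The core assembly chaperones went different ways, with Psmg1 higher at 0.73 ± 0.06, Psmg2 lower at -0.40 ± 0.08, and Pomp and Psmg3 not passing at 0.08 ± 0.09 and 0.10 ± 0.09.

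Sem1 (gene ID 20422), the smallest regulatory particle subunit and outside the symbol rule, was lower by -1.13 ± 0.08 (adjusted p = 3.55e-11) and below 0 in all 25 cultures. Nfe2l1 (gene ID 18023), the factor that raises subunit genes, was lower at -0.35 ± 0.13 (adjusted p = 0.0238), with 10 of 25 cultures above 0. Among the genes listed as ubiquitin and shuttle factors, Ubqln4 at 1.76 ± 0.09 and Nploc4 at 1.27 ± 0.06 were higher and Zfand2a at -0.78 ± 0.06 lower. Vcp at 0.86 ± 0.12, Ubqln1 at 0.33 ± 0.06 and Rad23b at 0.30 ± 0.06 were higher too. Ufd1 at 0.28 ± 0.13 and Ubqln2 at -0.08 ± 0.06 did not pass. The 8 genes of the chaperonin CCT, another housekeeping complex of fixed proportions, had a median of 0.27, with 5 higher and none lower. Of these, Cct2, Cct5 and Cct7 were detected on 12, 24 and 20 arrays. The 5 detected on every array, tested among such genes alone, had a median of 0.48, with 4 higher. The 21 subunits detected on every array had 1.02.

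The conditions were compared next, in polysome RNA, total RNA and efficiency, the log2 polysome over total value of a culture. No subunit passed in any of 11 comparisons in any of the 3 measures by limma adjusted over all genes, 1023 tests of members in all. At an unadjusted p below 0.05 there were 21 of these tests (2.05%), 9 of them in members detected on every array, against 7.26% of the tests of all genes. The lowest adjusted p was 0.0795. Changes ranged from -1.54 to 1.38, and from -0.90 to 0.67 in members detected on every array. The dim Psmd8, named after its values were seen, had 1.35 ± 0.37 on polysomes with mifepristone in the inducible line (adjusted p = 0.153). The 95% interval lay within 1 log2 unit of 0 in 712 tests (69.6%), and reached beyond it in the others. The induction, the comparisons of drug with no drug and the comparison of lines share the 3 inducible cultures with mifepristone alone.

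**Figure D4:**
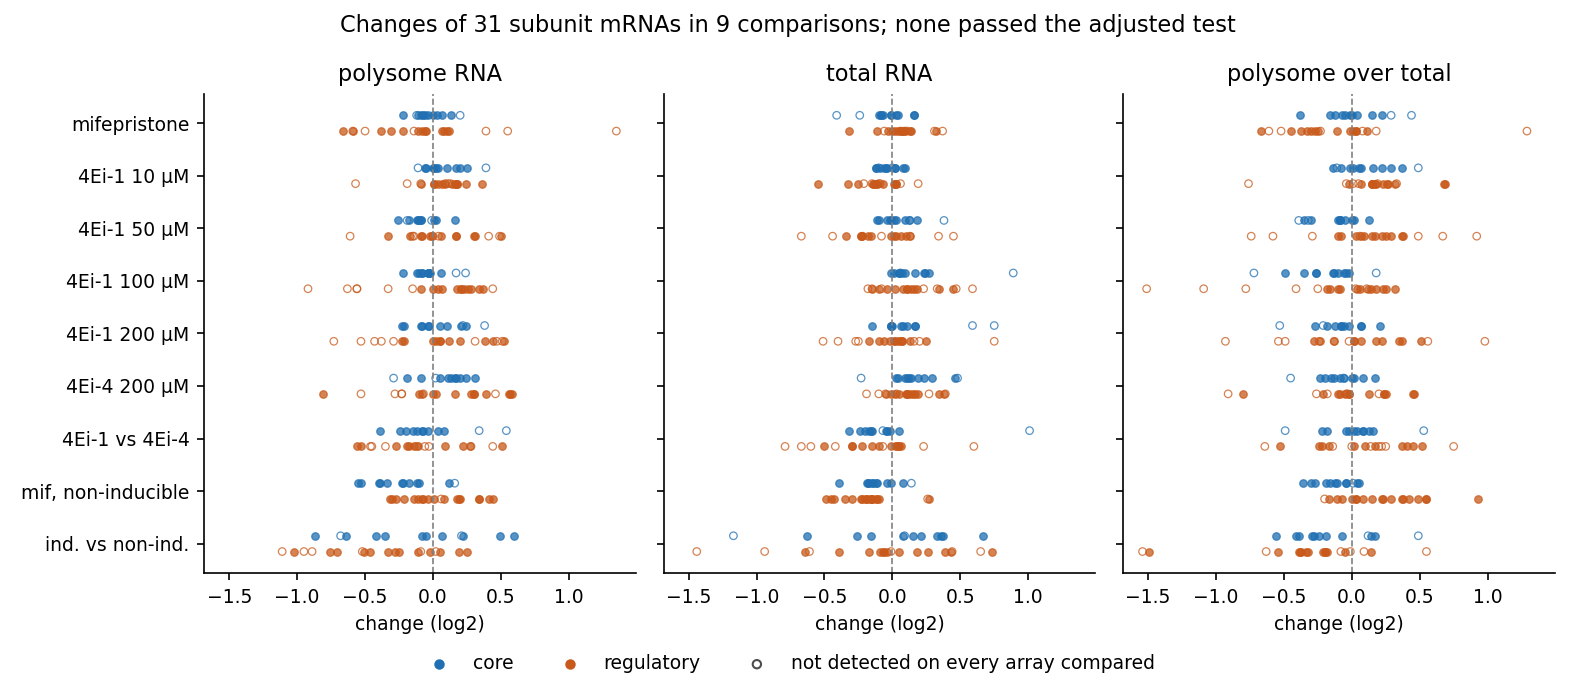
Log2 change of each tested member (points) in 9 of the 11 comparisons (rows) in polysome RNA, total RNA and efficiency (panels). Core members are blue, regulatory members orange, and open points are members not detected on every array compared. Points lie on both sides of 0, and the 21 members detected on all 50 arrays lie between -0.90 and 0.67.

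In the inducible line, cultures with mifepristone were compared with those without it. Mifepristone was given to raise eIF4E, a rise that the Eif4e probe could not check. The members' median change was -0.06 in polysome RNA, 0.04 in total RNA and -0.05 in efficiency, and none passed, with 2, 1 and 1 members at an unadjusted p below 0.05. Of all genes 0.413%, 0.627% and 0% passed. Psmd4 had polysome values of 12.98, 13.59 and 12.52 with and 13.57, 13.24 and 12.99 without mifepristone. The groups overlapped, and the change was -0.59 ± 0.22 (adjusted p = 0.434), the same in batches 1 and 3, the batches that held both groups. For Psma4 the efficiency was 1.12, 0.54 and 1.10 with and 1.85, 0.95 and 1.18 without, a change of -0.38 ± 0.31 that was -0.72 within batch 1 and 0.04 within batch 3.

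At 10 µM 4Ei-1 no member passed, and none was at an unadjusted p below 0.05 in polysome RNA, total RNA or efficiency, where 0% of genes passed in each by limma. The median half-width of the members' 95% intervals in efficiency was 0.64. Psmb7 had an efficiency of 0.96, 1.11 and 1.20 at 10 µM and of 0.79, 0.57 and 0.91 with mifepristone alone, without overlap. The change was 0.37 ± 0.27 (adjusted p = 1) and 0.17 within batch 3, the batch that held both groups. The total RNA of Psmd5 was 7.64, 7.71 and 7.65 against 7.88, 7.91 and 7.56, and its change of -0.33 ± 0.25 became 0.10 within batch 3.

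At 50 µM none passed either, nor was any at an unadjusted p below 0.05 by limma, where 0% of genes passed in polysome RNA, 0.143% in total RNA and 0.0714% in efficiency. The members' medians were -0.02, -0.01 and 0.02. Psmb6 had an efficiency of 1.08, -0.19 and 0.61 at 50 µM against 1.27, 0.53 and 1.25 with mifepristone alone. The groups overlapped, at -0.30 ± 0.23 (adjusted p = 0.729). Psmd4 had 11.48, 11.97 and 11.80 in total RNA against 11.66, 12.22 and 11.60, a change of -0.22 ± 0.12 (adjusted p = 0.495).

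At 100 µM 0.0873%, 0.468% and 0.333% of genes passed in polysome RNA, total RNA and efficiency, and no member did. By limma 1, 0 and 2 members were at an unadjusted p below 0.05. In total RNA 24 of 31 members had a value above 0, with a median of 0.11, as had 50.7% of all genes, with a median of 0.01. Psmb3, a structural core subunit, had 12.01, 11.92 and 11.66 in total RNA at 100 µM against 11.92, 11.37 and 11.72, overlapping, at 0.27 ± 0.13 (adjusted p = 0.369). Psmc1 had 9.11, 8.94 and 8.47 against 8.28, 8.77 and 9.21, and its 0.34 ± 0.20 was 0.83 within batch 1 and -0.06 within batch 2.

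At 200 µM, the highest dose, 0.0159% of genes passed in polysome RNA, 0.175% in total RNA and 0.428% in efficiency. No member passed, with 1, 1 and 0 at an unadjusted p below 0.05 by limma. The members' medians were 0.05, 0.04 and -0.06. The ATPase Psmc3 had polysome values of 11.73, 11.61 and 11.39 at 200 µM and of 10.99, 10.97 and 10.54 with mifepristone alone. These did not overlap, and the change was 0.52 ± 0.23 (adjusted p = 0.353), with 0.73 and 0.53 within batches 1 and 2. For Psmb3 the total RNA change was 0.17 ± 0.13.

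The catalytic and ubiquitin-handling subunits did not pass in efficiency at 200 µM 4Ei-1. The values were -0.21 ± 0.49 for Psmb5, 0.21 ± 0.23 for Psmb6 and 0.07 ± 0.24 for Psmb7. They were 0.35 ± 0.24 for Psmd4, -0.24 ± 0.71 for Psmd2 and -0.13 ± 0.44 for Psmd14. The dim Psmb5, Psmd2 and Psmd14 had the largest errors of these.

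The dose trend was the slope over 0, 10, 50, 100 and 200 µM 4Ei-1 per 100 µM. Of all genes 0% passed in polysome RNA, 0.0793% in total RNA and 0.0238% in efficiency, and no member did, with 1, 1 and 0 at an unadjusted p below 0.05 by limma. Psmc3 had polysome values of 10.72, 10.33 and 10.72 at 10 µM, 10.78, 11.67 and 11.64 at 50 µM and 11.51, 11.32 and 11.45 at 100 µM, beside those given for 0 and 200 µM. The 3 cultures at 100 µM and at 200 µM lay above those at 0 and 10 µM. The slope was 0.23 ± 0.12 (adjusted p = 0.492), and without the batch term, a setting that ignores how doses fell over batches, it was 0.43 (adjusted p = 0.0204), where 11.5% of all genes passed. Psmb1 had a polysome slope of -0.15 ± 0.11.

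**Figure D5:**
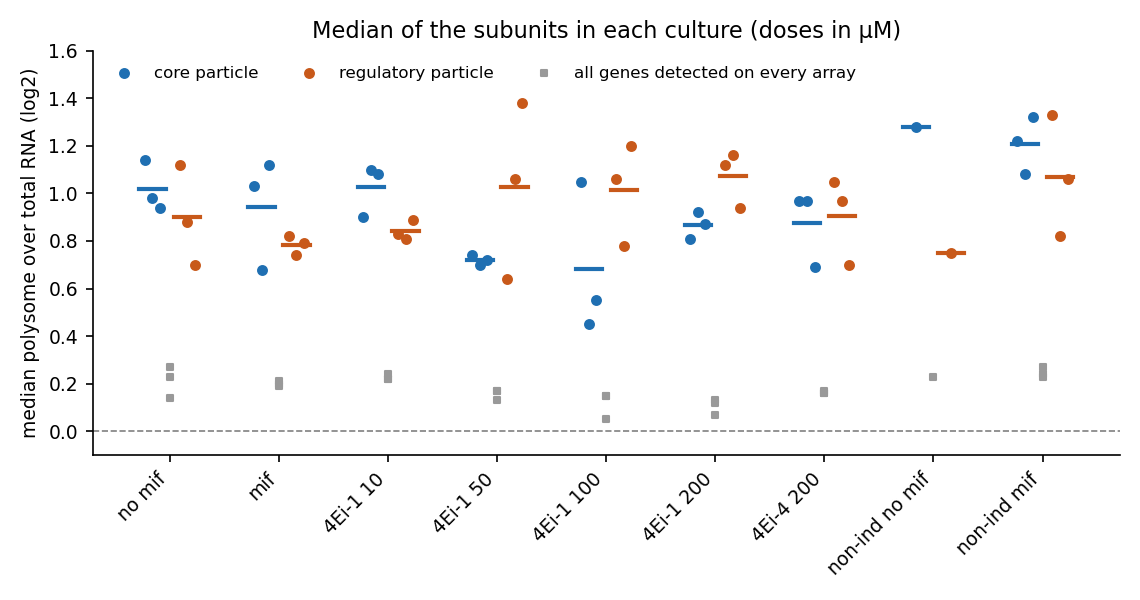
Median log2 polysome over total RNA of the 10 core and 11 regulatory subunits detected on every array, 1 point for each culture, with the mean of each group as a line, and of all genes detected on every array (grey squares). Every subunit median lies above the grey squares of its group, and the 3 core cultures at 50 µM lie close to their mean of 0.72.

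The medians of the fully detected members stayed above those of all genes at every dose. Their mean over cultures was 0.95 ± 0.15 (SD, n = 3) without mifepristone, 0.86 ± 0.11 with it, and 0.91 ± 0.09, 0.97 ± 0.29, 0.87 ± 0.21 and 0.99 ± 0.06 at 10, 50, 100 and 200 µM 4Ei-1. With 4Ei-4 it was 0.89 ± 0.17. The core medians were 0.72 ± 0.02 and 0.68 ± 0.32 at 50 and 100 µM against 0.94 ± 0.23 with mifepristone alone, and the regulatory medians were 1.03 ± 0.37 and 1.01 ± 0.21 against 0.78 ± 0.04. These medians are given as a description. Of the 3 cultures at each of 50, 100 and 200 µM, 2 were in batch 2, where the core median was 0.72 and the regulatory median 0.97, and the part of batch was not tested.

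4Ei-4 at 200 µM was compared with mifepristone alone across batches, since all its cultures were in batch 4. Of all genes 0% passed in polysome RNA, 0.00793% in total RNA and 0% in efficiency, and no member did, with 0, 1 and 0 at an unadjusted p below 0.05 by limma. Psmb3 had 12.00, 12.21 and 12.18 in total RNA with 4Ei-4 against 11.92, 11.37 and 11.72, without overlap, at 0.46 ± 0.20 (adjusted p = 1). The ATPase Psmc5 had polysome values of 11.44, 11.37 and 11.20 against 10.88, 10.47 and 10.91, also without overlap, at 0.58 ± 0.35 (adjusted p = 1). Drug and batch 4 cannot be told apart here.

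4Ei-1 and its analog were compared at the matched dose of 200 µM and the matched time of 4 h, the 1 pair of compounds in the study. Of all genes 0% passed in polysome RNA, 0.00793% in total RNA and 0% in efficiency, and no member did, with 0, 2 and 0 at an unadjusted p below 0.05 by limma. Psmd13 had 11.25, 11.06 and 10.91 in total RNA with 4Ei-1 and 11.46, 11.60 and 11.46 with 4Ei-4. The groups did not overlap, and the difference was -0.50 ± 0.23 (95% interval -0.98 to -0.01, adjusted p = 1). Psmb3 differed by -0.32 ± 0.20 (-0.75 to 0.11). In efficiency the differences were 0.53 (-0.66 to 1.73) for Psmb5, 0.08 (-0.54 to 0.71) for Psmb6 and 0.16 (-0.37 to 0.70) for Psmb7. They were 0.52 (-0.08 to 1.12) for Psmd4, -0.14 (-1.79 to 1.51) for Psmd2 and 0.25 (-0.82 to 1.31) for Psmd14. These intervals are wide, so they do not show that the compounds act alike. All 4Ei-4 cultures were in batch 4 and no 4Ei-1 culture was, so compound and batch cannot be told apart in this comparison.

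In the non-inducible line mifepristone was compared with its absence, 3 cultures against 1. The lone culture has no spread of its own, so errors and p-values assume that it varies like the other groups. No member passed and none was at an unadjusted p below 0.05, where 0% of genes passed in polysome RNA, total RNA and efficiency by limma. Psmb3 had polysome values of 12.38, 12.28 and 12.45 with and 12.90 without mifepristone, at -0.53 ± 0.32. Psmd4 had an efficiency of 1.51, 1.20 and 1.51 against 0.86, at 0.55 ± 0.32. The difference between the mifepristone effects of both lines, which rests on the same lone culture, passed for 0.0238% of genes in polysome RNA, 0.0317% in total RNA and 0% in efficiency. No member passed or was at an unadjusted p below 0.05, and the lowest p was that of Psmd4 on polysomes, -0.80 ± 0.40 (adjusted p = 0.999), followed in the core by Psmb3 at 0.60 ± 0.40.

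Between the inducible and the non-inducible line with mifepristone, 2.51% of all genes passed in polysome RNA, 6.29% in total RNA and 0.0238% in efficiency. No member passed, with 2, 3 and 2 at an unadjusted p below 0.05 by limma. Psma7 had 11.24, 11.37 and 10.76 in total RNA of the inducible and 10.35, 10.42 and 10.59 of the non-inducible line. The groups did not overlap, and the difference was 0.67 ± 0.22 (adjusted p = 0.0795). It passed at 0.75 with the authors' log2 values (adjusted p = 0.0127) and was -0.62 with array medians aligned in place of quantiles (adjusted p = 0.322), a scaling that moved the median of all genes to -0.86, so Psma7 stayed above that median. Without replicate 3 of the inducible line it was 0.86 and passed (adjusted p = 0.0139). Psmd5 had 7.88, 7.91 and 7.56 against 6.96, 7.07 and 7.13, also without overlap, at 0.73 ± 0.31 (adjusted p = 0.191), and it was -0.83 with medians aligned, beside the same median of -0.86. Without replicate 3 of the inducible line it was 0.97 (adjusted p = 0.0463). Between these groups line and batch cannot be told apart, since all non-inducible and no drug-free inducible cultures were in batch 4. The inducible cultures with 4Ei-4 were also in batch 4. Their total RNA values were 11.45, 11.43 and 11.38 for Psma7 and 7.72, 7.96 and 7.64 for Psmd5. The part of batch in these differences was not tested.

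Other genes of the pathway passed in this comparison of lines and in no other comparison of conditions. For these genes too, line and batch cannot be told apart, and the part of batch was not tested. Psmb10 (gene ID 19171), the inducible counterpart of Psmb7, was lower in the inducible line by -1.85 ± 0.41 on polysomes (adjusted p = 0.0152) and by -1.72 ± 0.32 in total RNA (adjusted p = 0.00282). Psme1 (gene ID 19186) was lower by -1.30 ± 0.29 (adjusted p = 0.0169) and -1.12 ± 0.25 (adjusted p = 0.0111). Both are interferon-responsive genes, and a part of interferon in these differences was not tested. In total RNA Ecpas was lower by -1.81 ± 0.51 (adjusted p = 0.0382) and Ufd1 higher by 0.93 ± 0.26 (adjusted p = 0.0388). Ufd1 was -0.61 with medians aligned, where the median of all genes was -0.86. With the authors' log2 values Ufd1 was 0.32 and did not pass by limma (adjusted p = 0.0742). With the mean of all detected probes of a gene Ecpas was -0.79 and did not pass (adjusted p = 0.159). Tested among fully detected genes alone, the polysome values of Psmb10 and Psme1 no longer passed (adjusted p = 0.0952 and 0.129), nor did Ecpas (adjusted p = 0.0671). With 1 culture left out, Psmb10 passed in 6 of 6 such fits in both RNAs and Psme1 in 6 of 6 in total RNA. Without replicate 2 of the inducible line the polysome value of Psme1 was -1.13 (adjusted p = 0.0607). Ecpas passed in 1 of 6, without replicate 3 of the inducible line at -2.43, and was -1.49 to -1.89 in the others, and Ufd1 passed in 3 of 6, falling to 0.73 to 0.92 without replicate 2 of the inducible or replicate 2 or 3 of the non-inducible line.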

How the data were processed

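The deposited non-normalized table holds, per the file headers, a linear intensity and a detection p-value of 45281 probes on each of 50 arrays. For the log2 values the authors also deposited, the sources used here do not give a normalization. Of the probes, 34885 had 1 gene symbol in the platform table, 18 had several and 10378 were not listed, and 34807 were matched by gene ID.

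Background correction was by limma 3.58.1 in R 4.3.3 (normexp from detection p-values, offset 16), followed by quantile normalization. Groups, replicates and the 4 processing batches come from the labels. Each measure was fitted in limma over 25 cultures with group and fixed batch terms. The level of polysome over total RNA had group terms alone. Batch 4 alone contained the 4Ei-4 and non-inducible groups, so setting them against groups from other batches used batch as a random block (statmod 1.5.0, correlations 0.172 in efficiency, 0.45 in polysome and 0.408 in total RNA). P-values were adjusted by Benjamini-Hochberg over 12605 genes. The fits were tested on simulated data that held no batch differences, so the handling of batch was not checked by them. The number of arrays limits the precision.

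The members, lists and alternatives were chosen with earlier results of these data known. By rule, the 3 highest and lowest members of each particle, the catalytic, receptor and deubiquitinase subunits, members whose probes disagree, and for each contrast of conditions the core and regulatory member of lowest p, if present on all arrays of the contrast, were named. Protein lengths were not analysed here.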

Additional observations from a re-analysis of the deposited data

How the results depend on the processing

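The level on polysomes kept its direction for most subunits. Of 31 members 24 to 27 were higher and 1 to 3 lower under the other settings over these members, and with 1 culture left out 28 to 29 were called. Psmc6 turned to -0.01 with the authors' log2 values, 0 with batch as a random block, -0.06 without batch 2, and -0.02 to 0.05 with 1 culture left out, and Psma8 turned to 0.11 without batch 2. The core minus regulatory difference of 0.24 was 0.45 with the authors' values, 0.52 with the mean of probes and -0.02 among fully detected genes. Of 528 recomputed counts of members called between conditions 512 were 0.

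For the inducible against the non-inducible line, the count in polysome RNA was 1 with the authors' values, 10 with medians aligned and 2 without a batch term, where 3.55%, 15.8% and 11.3% of all genes were called. In total RNA it was 2, 6 and 3 (7.67%, 22.9% and 16.4% of all genes), 1 without background correction (7.7%), 1 without a filter on dim probes (5.79%), and 0 to 3 with 1 culture left out (3 without replicate 3 of the inducible line with mifepristone, 11.4%). With medians aligned, the count was 2 for 4Ei-1 against 4Ei-4 in polysome RNA and 1 and 3 in efficiency at 50 and 100 µM, where 7.4%, 1.98% and 8.81% of all genes were called. That setting moved the median of all genes by -0.59 and -0.86 between the lines in polysome and total RNA, by -0.74 between the compounds, by -0.31 and -0.35 in efficiency at 50 and 100 µM and by 0.19 in total RNA at 50 µM. Without a batch term 3 members and 11.5% of all genes had a polysome dose trend. Counts of 0 to 1 came from leaving out 1 culture at 200 µM 4Ei-1 in total RNA and efficiency and in the total RNA trend, each time without replicate 1 at 200 µM, where 1.27%, 1.1% and 0.516% of all genes were called.

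Psma4 efficiency on induction turned to 0.04 within batch 3, and was -0.82 to 0.04 with 1 culture left out, 0.04 without replicate 1 of the group without mifepristone. Psmd5 at 10 µM turned to 0.10 within batch 3, and Psmc1 at 100 µM to -0.06 within batch 2, and the cause was not tested. With medians aligned Psmd4 at 50 µM was 0.20 and Psma7 and Psmd5 between the lines were -0.62 and -0.83, beside shifts of all genes of 0.19 and -0.86 by that scaling. Across all groups no replicate number stood for 1 batch, but replicate 1 of the inducible groups was in batch 1 except at 10 µM and with 4Ei-4. The deviations of replicate 1 correlated on polysomes at 0.45 for induction and at 0.24, 0.47 and 0.44 for 50, 100 and 200 µM. In efficiency these were 0.10, 0.03, 0.12 and 0.14. All correlations of deviations were -0.39 to 0.57, all over 0.1 in 2 of 24 sets. A fit with the replicate block left 28 members called in level and 0 in each condition. Dim members (Psma8, Psmc6, Psmd6, Psmd8) give little beyond presence near background.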
